A study of Homo sapiens with 6 samples.

Results

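Platelet-derived growth factors (PDGFs) and their receptors were followed in 21NT cells, a human breast cancer line used as a model of ductal carcinoma *in situ* (DCIS), after stable overexpression of either isoform of the T-box repressor TBX3. The set holds 7 of the 20824 genes in the deposited table and was chosen by gene symbol: the receptors *PDGFRA* and *PDGFRB*, the related receptor *KIT*, and the ligands *PDGFA*, *PDGFB*, *PDGFC* and *PDGFD*. *PDGFRA* was included because of its level in these same libraries, so its values are given as a description without a test. The other 6 were included as its family and its chromosome 4 neighbour.

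RNA-Seq was carried out on 3 lines with 2 libraries each: 21NT cells transfected with an empty pcDNA3.1 vector (EV), with the shorter TBX3 isoform (TBX3iso1), or with the isoform that carries the additional exon 2a in its DNA binding domain (TBX3iso2). All 3 lines carried the G418 resistance of the vector and were kept under G418 in a medium with insulin, EGF, hydrocortisone and fetal bovine serum. Each line was a pool of resistant clones from a transfection, so the 2 libraries are replicates of 1 pool, and the sources do not say whether they came from separate cultures. Their spread, and every p-value below, may therefore be technical only. In a bulk library, fewer cells with a transcript and less of it per cell cannot be told apart.

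PDGFs are secreted as disulphide-linked dimers that bring receptor chains together. The alpha receptor, encoded by *PDGFRA*, binds the A, B and C chains, and the beta receptor, encoded by *PDGFRB*, binds the B and D chains. Both are class III receptor tyrosine kinases, as is KIT, the receptor for stem cell factor. In epithelial tissues the ligands are typically made by the epithelium and the receptors carried by fibroblasts and pericytes, and PDGFs also act on tumour cells that have taken on mesenchymal traits.

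The 6 libraries held between 43176600 and 54512400 alignments. *TBX3* itself was 8.52 and 8.24 RPKM (reads scaled to transcript length and library depth) in EV, 13.1 and 11.4 RPKM with TBX3iso1, and 17.5 and 15.5 RPKM with TBX3iso2, above EV in each isoform library. Its log2 fold change was 0.97 with TBX3iso2 but 0.54 with TBX3iso1, under the 1.5-fold threshold used to call a gene. It was also higher with TBX3iso2 than with TBX3iso1, by 0.43 (limma adjusted p = 0.0275), again under that threshold. The part of the *TBX3* level in differences between the isoform lines was not tested. Of 16 mammary epithelial markers, 15 were expressed at a mean of 0.5 RPKM or more, *KRT14* being under 0.1 RPKM in every library, and their summed level was 3590 to 3710 RPKM in EV, 2820 to 3080 RPKM with TBX3iso1 and 3190 to 3560 RPKM with TBX3iso2. Against EV 6 of the 15 fell and 1 rose with TBX3iso1, where 14.1% of all tested genes fell and 7.46% rose, and 5 fell and 1 rose with TBX3iso2, where 12.3% fell and 8.94% rose. Among them were *ELF3* (log2 fold changes -2.15 and -2.10), *MUC1* (-1.67 and -1.84), *ERBB3* (-0.90 and -0.94) and the basal keratin *KRT5* (1.20 and 1.25). The part of such differences in the levels below was not tested. RPKM values are multiples of what 1 read is worth, and comparison of low genes between libraries gave back the number of reads behind each value of the 7 genes, to within 0.033 of a whole read. The sources do not say whether each mate of a pair or the pair was counted as 1 read. If mates were counted apart, the counting intervals below are too narrow.

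*PDGFRA* separated all 3 lines. It stood at 8.08 and 7.98 RPKM in the EV libraries, at 3.63 and 3.28 RPKM with TBX3iso1, and at 0.0111 and 0.0132 RPKM with TBX3iso2. The EV libraries were highest, the TBX3iso1 libraries lay between, and the TBX3iso2 libraries were near 0, with no overlap between any of the lines. These levels rest on 2351 and 1831 reads in EV, 975 and 855 reads with TBX3iso1, and 3 reads in each TBX3iso2 library. At 3 reads the TBX3iso2 libraries hold no more than the smallest number of reads treated here as a measurement, which corresponds to 0.0103 to 0.0132 RPKM for *PDGFRA*. After scaling for depth, EV held 2.32 times the *PDGFRA* reads of TBX3iso1 (95% interval 2.20 to 2.46) and 666 times those of TBX3iso2 (306 to 1810). TBX3iso1 held 286 times those of TBX3iso2 (131 to 781). These intervals are exact binomial intervals on the pooled reads of each line and cover counting error only. Because *PDGFRA* was chosen for these very values, they describe how precise the counts are and are no test of a difference.

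On the scale used for the tests, log2(RPKM + 0.1), the *PDGFRA* differences were -1.20 for TBX3iso1 against EV, -6.18 for TBX3iso2 against EV and -4.98 for TBX3iso2 against TBX3iso1. Both values for TBX3iso2 depend on the level added before the log, and became -3.16 and -2.14 when 1 RPKM was added, and -8.50 and -7.29 when 0.01 RPKM was added.

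**Figure D1:**
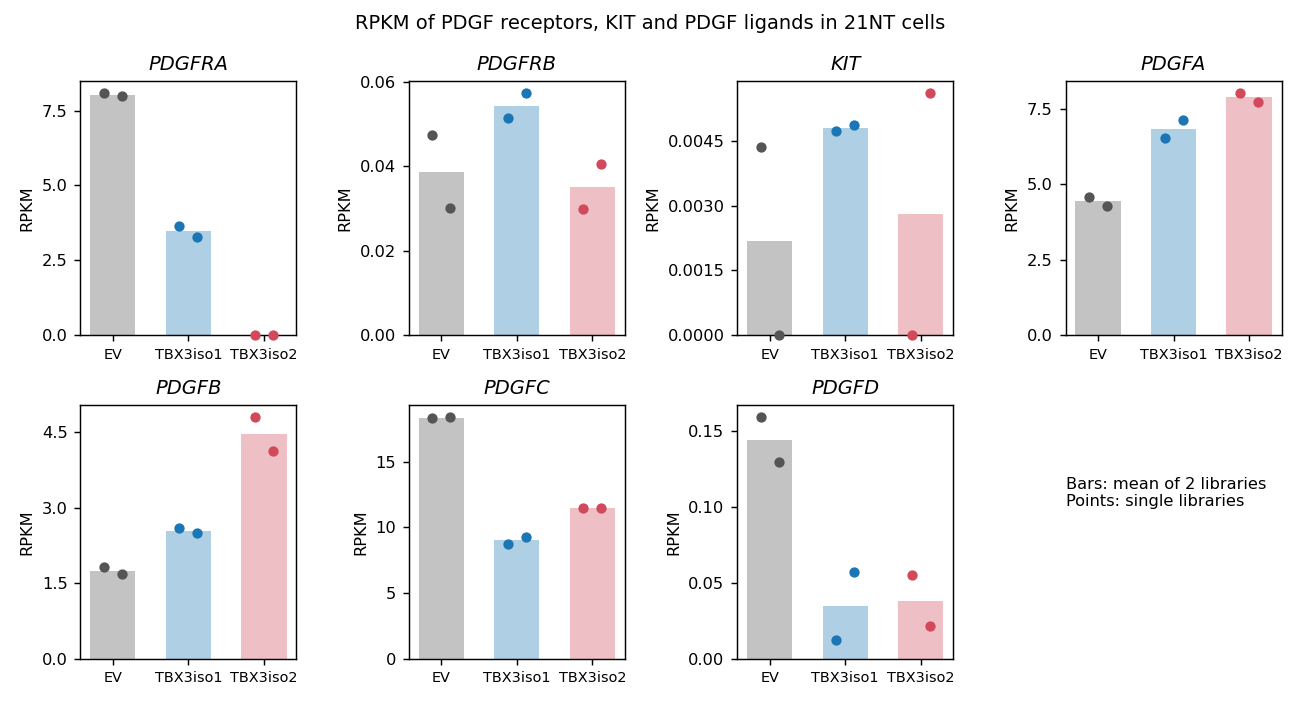
Levels of the 7 genes in RPKM (vertical axes, each starting at 0 with its own range) in the EV, TBX3iso1 and TBX3iso2 lines. Points are single libraries and bars the mean of 2: *PDGFRA* steps down from 8.03 to 3.46 to 0.0122 RPKM, *PDGFA* and *PDGFB* step up, and the axes of *PDGFRB*, *KIT* and *PDGFD* all end below 0.2 RPKM.

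*PDGFRA* lies on chromosome 4 of GRCh37 (the assembly also called hg19, used for the deposited table) from 55095447 to 55164412 on the plus strand, with 23 exons in its principal (MANE) transcript. The 250 bases before the annotated start of the principal transcript are shown for *PDGFRA*, *PDGFA* and *PDGFC*, to set the receptor's sequence beside those of the 2 ligands with the highest levels. Capitals mark GC boxes (GGGCGG on either strand). The windows are chr4:55095210-55095459 (plus strand), chr7:559484-559733 (minus) and chr4:157892952-157893201 (minus), each written 5′ to 3′ along the gene.
PDGFRA: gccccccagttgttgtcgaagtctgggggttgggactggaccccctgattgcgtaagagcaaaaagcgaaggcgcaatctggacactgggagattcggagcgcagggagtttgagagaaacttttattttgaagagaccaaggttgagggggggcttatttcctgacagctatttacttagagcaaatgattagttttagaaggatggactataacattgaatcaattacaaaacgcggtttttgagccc
PDGFA: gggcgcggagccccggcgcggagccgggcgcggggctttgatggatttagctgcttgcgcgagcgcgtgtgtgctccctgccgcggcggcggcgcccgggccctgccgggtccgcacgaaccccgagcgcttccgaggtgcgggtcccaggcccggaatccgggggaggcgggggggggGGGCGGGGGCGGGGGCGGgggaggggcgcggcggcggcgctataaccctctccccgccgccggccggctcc
PDGFC: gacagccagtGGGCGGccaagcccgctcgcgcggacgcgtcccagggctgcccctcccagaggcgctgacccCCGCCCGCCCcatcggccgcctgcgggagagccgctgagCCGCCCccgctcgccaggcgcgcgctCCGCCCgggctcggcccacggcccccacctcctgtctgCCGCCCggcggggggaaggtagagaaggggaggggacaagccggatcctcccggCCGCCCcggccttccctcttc

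The *PDGFRA* window was the poorest in G and C of the 6 examined, at 46.8% with 8 CpG dinucleotides, against 81.6% and 40 for *PDGFA* and 79.2% and 31 for *PDGFC*. The median over the 15904 genes of the table with such a window was 64.8% and 20. The *PDGFRA* window held no GC box, a motif found in 64.9% of all windows, whereas *PDGFA* held 3 and *PDGFC* 7. The TATA box TATAAA, searched on both strands and found in 7.21% of all windows, had no match in the 3 windows shown. The T-box core AGGTGT, found in 8.41% of windows on either strand, had no match in any of the 6 windows. Nor had the longer GAGGTGTCAGA, which contains that core and was found in 0.0126% of windows. The paper gives this longer sequence as the T-box motif it identified within *SNAI2*. It also assessed consensus motifs of related T-box proteins and searched regions bound by both isoforms, which was not done here. T-box sites outside the windows were not searched for. The starts are those of the annotation and were not measured in these cells.

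The other receptors were close to the limit of detection in every line. *PDGFRB*, on chromosome 5 from 149493402 to 149535435, was 0.0475 and 0.0301 RPKM in EV, 0.0514 and 0.0574 RPKM with TBX3iso1, and 0.0298 and 0.0406 RPKM with TBX3iso2. That is 12 and 6 reads, 12 and 13 reads, and 7 and 8 reads. The TBX3iso2 libraries overlapped those of EV, while both TBX3iso1 libraries lay above those of EV and of TBX3iso2. The ratio of TBX3iso1 to EV of 1.37 had a 95% counting interval of 0.716 to 2.66, so no difference was detectable at this depth. The ratio of TBX3iso2 to TBX3iso1 was 0.639 (0.313 to 1.26). *KIT*, which starts 359.0 kb beyond the end of *PDGFRA* on the same strand, was supported by a single read in 1 EV library, in both TBX3iso1 libraries and in 1 TBX3iso2 library, and was listed at 0 in the others. All 6 *KIT* values lie under the 0.0131 to 0.0168 RPKM that 3 reads are worth, and no ratio is given. Both genes had a mean under 0.5 RPKM, the limit for testing, and neither came near the level of *PDGFRA* in EV in any line.

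*PDGFC* fell with both isoforms. It encodes the C chain, which is secreted in a latent form and must be cleaved to bind the alpha receptor. Its levels were 18.3 and 18.4 RPKM in EV, 8.76 and 9.26 RPKM with TBX3iso1, and 11.5 and 11.5 RPKM with TBX3iso2. Every isoform library lay below both EV libraries, and the TBX3iso1 libraries lay below those of TBX3iso2. With TBX3iso1 the log2 fold change came to -1.02 (SE 0.0728, limma adjusted p = 5.42e-05), and with TBX3iso2 to -0.67 (limma adjusted p = 0.000327). Between the isoforms *PDGFC* was higher with TBX3iso2 by 0.34 (95% interval 0.17 to 0.51, limma adjusted p = 0.0208), which is under the 1.5-fold threshold used to call a gene.

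*PDGFA* rose with both isoforms. It encodes the A chain, whose dimer binds only the alpha receptor. Its levels were 4.57 and 4.28 RPKM in EV, 6.53 and 7.13 RPKM with TBX3iso1, and 8.01 and 7.73 RPKM with TBX3iso2. The lines did not overlap, EV being lowest and TBX3iso2 highest. With TBX3iso1 the log2 fold change came to 0.61 (SE 0.0905, limma adjusted p = 0.00142), and with TBX3iso2 to 0.82 (limma adjusted p = 0.00037). The TBX3iso1 value lies just over the fold threshold and dropped under it without EV replicate 2 (0.57), without TBX3iso1 replicate 2 (0.55) and with 1 RPKM added before the log (0.53). Between the isoforms the difference of 0.20 did not pass (95% interval -0.01 to 0.41, limma adjusted p = 0.176).

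*PDGFB* rose with TBX3iso2, by more than *PDGFA* did there, and was the 1 tested ligand that differed between the isoforms past both thresholds. Its product, the B chain, binds both PDGF receptors. Its levels were 1.82 and 1.68 RPKM in EV, 2.61 and 2.50 RPKM with TBX3iso1, and 4.81 and 4.13 RPKM with TBX3iso2. Again no library of a line fell within the range of another line. The log2 fold change with TBX3iso2 was 1.30 (SE 0.118, limma adjusted p = 0.000159). With TBX3iso1 it was 0.52 (limma adjusted p = 0.00971), under the fold threshold, which it passed with median-ratio scaling (0.60) and quantile normalization (0.74). TBX3iso2 exceeded TBX3iso1 by 0.78 (95% interval 0.50 to 1.06, limma adjusted p = 0.00608), and without moderation of the variances this difference no longer passed (limma fit without moderation, adjusted p = 0.0699 on log2 values and 0.0842 on RPKM).

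*PDGFD*, whose product binds the beta receptor, was low throughout. It was 0.159 and 0.129 RPKM in EV, 0.0123 and 0.0568 RPKM with TBX3iso1, and 0.0548 and 0.0218 RPKM with TBX3iso2. The reads behind these values numbered 28 and 18, 2 and 9, and 9 and 3. Both EV libraries lay above all 4 isoform libraries, while those of the isoforms overlapped each other. The depth-scaled ratio to EV was 0.235 with TBX3iso1 (95% counting interval 0.11 to 0.461) and 0.273 with TBX3iso2 (0.132 to 0.524). With a mean of 0.0722 RPKM the gene was not among those tested. When the filter on low values was dropped, *PDGFD* passed both thresholds against EV with each isoform (log2 fold changes -0.88 and -0.83, limma adjusted p = 0.0399 and 0.0459). These fold changes depend on the 0.1 RPKM added before the log, which exceeds the level in every isoform library. They are therefore smaller than the ratios of reads, and rest on the few reads given above.

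**Figure D2:**
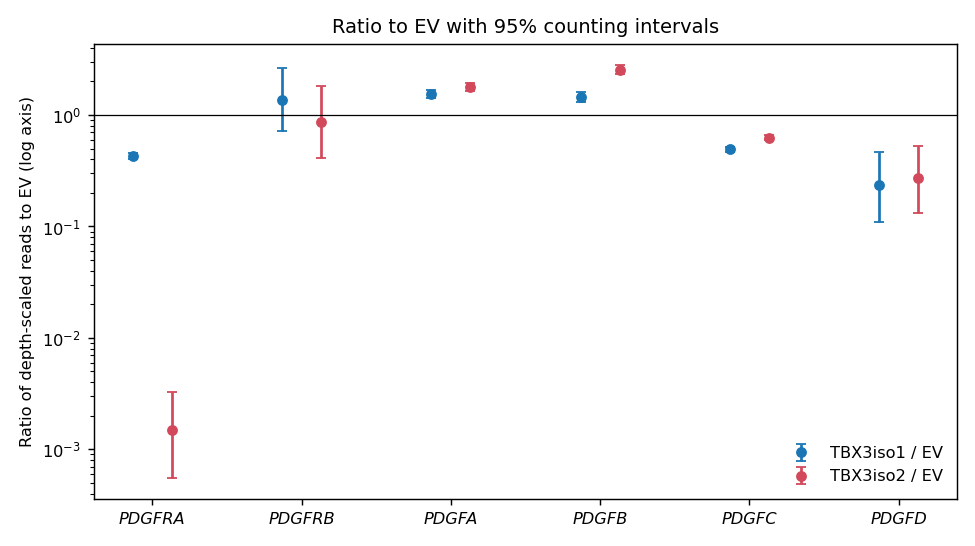
Ratio of depth-scaled reads to EV (vertical log axis) for 6 of the genes with TBX3iso1 and TBX3iso2, *KIT* being left out for want of reads. Bars are 95% counting intervals: the *PDGFRA* ratio is 0.43 with TBX3iso1 and 0.0015 with TBX3iso2, while all other points lie between 0.2 and 3. *PDGFRA* was chosen for its level, so its bars are a description and no test.

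The mean over all libraries reached 0.5 RPKM for 4 of the 7 genes and not for 3, namely *PDGFRB*, *KIT* and *PDGFD*. Leaving *PDGFRA* aside, 2 of the 3 tested ligands were called against EV with TBX3iso1, where 21.5% of all 12805 tested genes were called. All 3 were called with TBX3iso2, where 21.2% were. Between the isoforms 1 of the 3 was called, against 6.29% of all genes. Since these comparisons share the EV libraries, and the set was formed with results of these libraries known, nothing is read from the counts. The direction of calls over all genes depended on the scaling: with TBX3iso1, 34.6% of them were upward, against 46.6% with median-ratio scaling and 49.3% with quantile normalization.

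RPKM is scaled to transcript length, and the length that the reads imply is known only up to a factor shared by all genes. On that scale it was 0.545 of the annotated principal transcript for *PDGFC*, against 0.813 to 0.844 for the other genes. The place of *PDGFC* therefore depends on the length used. On the deposited RPKM the order in EV was *PDGFC* (18.3 RPKM), *PDGFRA* (8.03), *PDGFA* (4.43), *PDGFB* (1.75), *PDGFD* (0.144), *PDGFRB* (0.0388) and *KIT* (0.00218), and the libraries of each gene were separate from those of the next. *PDGFC* also came highest in both isoform lines on this scale. Over the annotated lengths, an alternative chosen after seeing the data, *PDGFC* still led in EV, at 10.0 against 6.72 for *PDGFRA*. It stood below *PDGFA* with TBX3iso1 (4.91 against 5.68) and with TBX3iso2 (6.24 against 6.54), while the order of the other 6 genes was as on the deposited RPKM. This alternative divides the same reads by the annotated length. If the *PDGFC* model that was counted was shorter, reads in the remainder are missing. The level and share of *PDGFC* and the ligand sums would then come out too low on this scale, which was not tested. With TBX3iso1 *PDGFA* (6.83 RPKM as deposited) stood above *PDGFRA* (3.46), and *PDGFRB* and *PDGFD* overlapped. With TBX3iso2 *PDGFRA* (0.0122) ranked below *PDGFD* (0.0383) and *PDGFRB* (0.0352), whose libraries overlapped, and above *KIT* alone. The summed level of the 4 ligands was 24.7 ± 0.224 RPKM (SD, n = 2) for EV, 18.4 ± 0.727 RPKM for TBX3iso1 and 23.8 ± 0.702 RPKM for TBX3iso2, as deposited. Over the annotated lengths it was 15.3 ± 0.218, 12.8 ± 0.504 and 16.6 ± 0.588 (SD, n = 2), so that the order of EV and TBX3iso2 turned. Of the deposited sum *PDGFC* supplied 73.6% and 75.2% of it in the EV libraries, 48.9% in each TBX3iso1 library, and 47.1% and 49.1% with TBX3iso2. Over the annotated lengths these shares were 64.6% and 66.4%, then 38.5% in each, then 36.8% and 38.7%, again higher in EV than in either isoform line. Of the deposited sum *PDGFB* supplied 7.34% and 6.86%, then 14.6% and 13.2%, then 19.8% and 17.7%.

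The genes around *PDGFRA* on chromosome 4 were examined over 17 genes from *USP46* to *CEP135*. Apart from *PDGFRA*, 11 were tested. With TBX3iso1, 1 of these was called higher, against 7.46% of all genes, and 0 were called lower by limma (2 at an unadjusted p under 0.05), against 14.1%. With TBX3iso2 the calls were 2 upward and 4 downward, against 8.94% and 12.3% of all genes. The median log2 fold change of the 11 was -0.10 and -0.25, against -0.05 and 0.00 over all genes. *CHIC2*, the nearest tested gene, with its start upstream of *PDGFRA* at -164.7 kb, was 6.09 and 5.88 RPKM in EV, 5.54 and 5.61 RPKM with TBX3iso1, and 4.91 and 5.10 RPKM with TBX3iso2. The 3 lines did not overlap, and the log2 fold change with TBX3iso2 was -0.25 (limma adjusted p = 0.0412), under the fold threshold. *KDR*, the receptor for VEGF on the far side of *KIT*, was 0.164 and 0.170 RPKM in EV, 0.174 and 0.187 RPKM with TBX3iso1, and 0.0562 and 0.0288 RPKM with TBX3iso2, too low to be tested. Like *PDGFRA* it was lowest in both TBX3iso2 libraries, but its TBX3iso1 libraries lay above those of EV.

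Farther out, *SRD5A3*, a steroid and dolichol reductase, had log2 fold changes of -0.40 with TBX3iso1 and -1.36 with TBX3iso2. *NMU*, the neuropeptide neuromedin U, had -0.16 and -1.20. Both fell with TBX3iso2 and differed between the isoforms (limma adjusted p = 0.000834 and 0.00148). *TMEM165* and *EXOC1* were also called lower with TBX3iso2 (-0.66 and -0.62), and *RASL11B* higher with both isoforms (1.09 and 1.31). *FIP1L1*, a cleavage and polyadenylation factor known as a fusion partner of *PDGFRA* in eosinophilic disease, rose with TBX3iso2 from 36.3 and 34.5 RPKM to 53.7 and 56.1 RPKM (0.63, limma adjusted p = 0.00036).

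**Figure D3:**
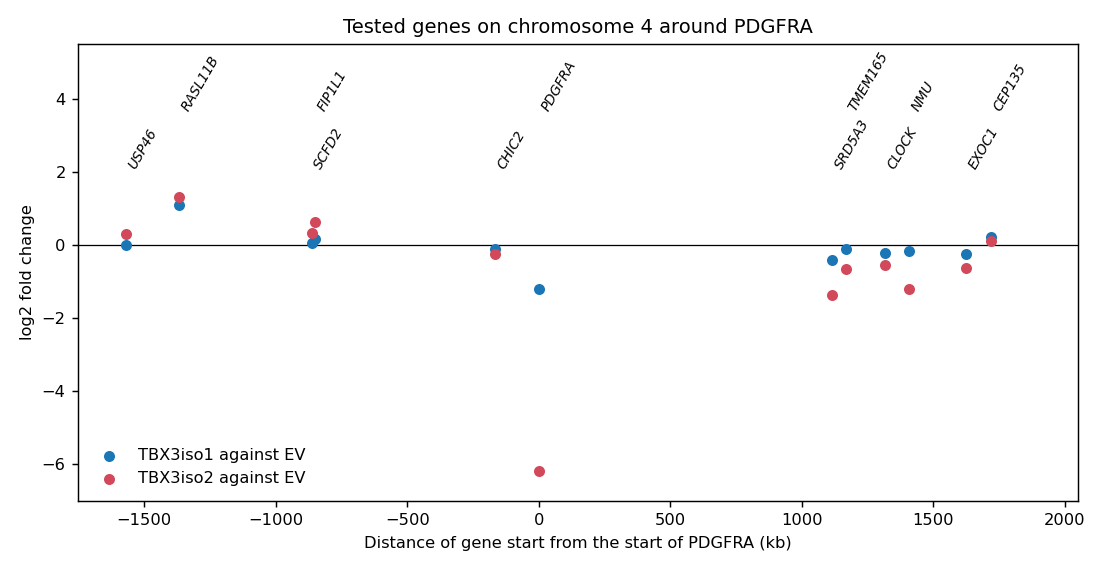
Log2 fold change against EV (vertical axis) of the 12 tested genes around *PDGFRA*, by the distance of their start from that of *PDGFRA* in kb (horizontal axis, gene names above the points). The *PDGFRA* points lie at -1.20 and -6.18, and all other points lie between -1.36 and 1.31.

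The other ligands of class III receptors were read from a list of 4 genes, of which 3 were tested and 0 rose in any comparison by limma (0 at an unadjusted p under 0.05). Over all genes 7.46% were called higher with TBX3iso1, 8.94% with TBX3iso2 and 3.47% between the isoforms. Lower calls were 1, 2 and 2 of the 3, against 14.1%, 12.3% and 2.82% of all genes. With 3 tested genes nothing is read from these counts. *CSF1*, the macrophage colony-stimulating factor, was 29.1 and 28.6 RPKM in EV, 13.2 and 12.3 RPKM with TBX3iso1, and 7.03 and 6.73 RPKM with TBX3iso2. It followed the same order of lines as *PDGFRA*, falling by a log2 fold change of -1.17 (limma adjusted p = 3.57e-05) and of -2.05 (limma adjusted p = 4.39e-06), with a difference between the isoforms of -0.88 (limma adjusted p = 0.000612). *FLT3LG* fell with TBX3iso2 (-0.81). *KITLG*, which encodes the stem cell factor that binds KIT, was 1.75 and 1.52 RPKM in EV, 1.84 and 1.72 RPKM with TBX3iso1, and 1.29 and 1.01 RPKM with TBX3iso2, and was called between the isoforms (-0.60, limma adjusted p = 0.0408) but against EV with neither. Of the 5 other receptors of the class and its VEGF relatives, *CSF1R* was the one tested and was not called (-0.17 and -0.49), and *FLT1* was under 0.003 RPKM in every library.

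Proteases that activate PDGFs, binding proteins and co-receptors made up a list of 10 genes, of which 8 were tested. With TBX3iso1, 2 rose and 0 fell by limma (1 at an unadjusted p under 0.05), and with TBX3iso2, 2 rose and 1 fell, where 21.5% and 21.2% of all genes were called in either direction. *PLAU*, the urokinase that can release the active D chain, rose from 25.6 and 28.4 RPKM in EV to 98.9 and 109 RPKM with TBX3iso1 and 104 and 97.3 RPKM with TBX3iso2. *PLAT*, the tissue plasminogen activator that cleaves the latent C chain, rose from 1.68 and 1.41 RPKM to 5.80 and 5.6 RPKM and to 3.05 and 2.78 RPKM. The *PLAU* levels of the isoform lines overlapped (difference -0.05, 95% interval -0.25 to 0.16), while *PLAT* was lower with TBX3iso2 than with TBX3iso1 (-0.94, limma adjusted p = 0.00301). *LRP1*, an endocytic receptor that acts with the beta receptor, was 1.23 and 1.10 RPKM in EV, 1.32 and 0.972 RPKM with TBX3iso1 and 0.283 and 0.244 RPKM with TBX3iso2. It fell with TBX3iso2 (-1.80, limma adjusted p = 0.000284) and was lower there than with TBX3iso1 (-1.77, limma adjusted p = 0.00148).

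Of 29 adaptors and effectors recruited to activated PDGF receptors, 28 were tested. Calls with TBX3iso1 were 2 upward and 2 downward, and with TBX3iso2 they were 2 upward and 3 downward, with medians of -0.04 and 0.01. Of all tested genes 21.5% and 21.2% were called, so these counts are not a result about the list. *NCK2* (0.94 and 0.89) and *GRB10* (0.70 and 0.76) rose, and *GRB7* (-1.25 and -1.01) and *GAB1* (-0.93 and -0.82) fell with both isoforms, all SH2 or docking adaptors. *FYN*, a kinase of the SRC family, fell with TBX3iso2 (-1.30) and was lower there than with TBX3iso1 (-0.84, limma adjusted p = 0.00693).

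Negative regulators of receptor tyrosine kinases numbered 21, all of them tested. TBX3iso1 gave 1 upward and 4 downward calls and TBX3iso2 gave 2 and 4, with medians of 0.01 and -0.24. Over all genes 21.5% and 21.2% were called, so these counts too are near the background. *DUSP4*, a phosphatase of MAP kinases, fell from 17.4 and 17.9 RPKM to 7.13 and 6.91 RPKM with TBX3iso1 and to 6.71 and 6.81 RPKM with TBX3iso2. *ERRFI1*, an inhibitor of EGF receptors, fell as well (-1.0 and -1.09). *LRIG1*, which promotes degradation of receptor tyrosine kinases, rose with TBX3iso1 (0.85), while its difference with TBX3iso2 was -0.24 and did not pass, and the isoforms differed (-1.09, limma adjusted p = 0.00281). *SH2B3* rose with TBX3iso2 (1.00) and differed between the isoforms (0.87, limma adjusted p = 0.00649).

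Primary response genes, which growth factors such as PDGF induce within minutes, moved in both directions. Of 18 listed genes 15 were tested, with 2 upward and 3 downward calls for TBX3iso1, against 7.46% and 14.1% of all genes, and 4 and 1 for TBX3iso2, against 8.94% and 12.3%. Between the isoforms 5 were higher with TBX3iso2, against 3.47% of all genes, and 0 were lower by limma (0 at an unadjusted p under 0.05), against 2.82%. *FOSB* was 0.928 and 0.729 RPKM in EV, 0.733 and 0.641 RPKM with TBX3iso1, and 13.4 and 5.76 RPKM with TBX3iso2. Its TBX3iso2 libraries were far above the rest and also far from each other. *ATF3*, a stress-induced factor, had log2 fold changes of 0.39 with TBX3iso1 and 2.28 with TBX3iso2, of which the latter passed. Its TBX3iso2 libraries, at 14.5 and 7.46 RPKM, were also far from each other. Among the other genes called between the isoforms, TBX3iso2 replicate 1 was above replicate 2 for *FOS* (15.5 and 9.87 RPKM) and *KLF6* (32.0 and 22.2 RPKM). The 2 were closer for *FOSL1* (393 and 371 RPKM). *FOS* fell with TBX3iso1 (-1.91), and *FOSL2* fell with both (-1.42 and -1.36).

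**Figure D4:**
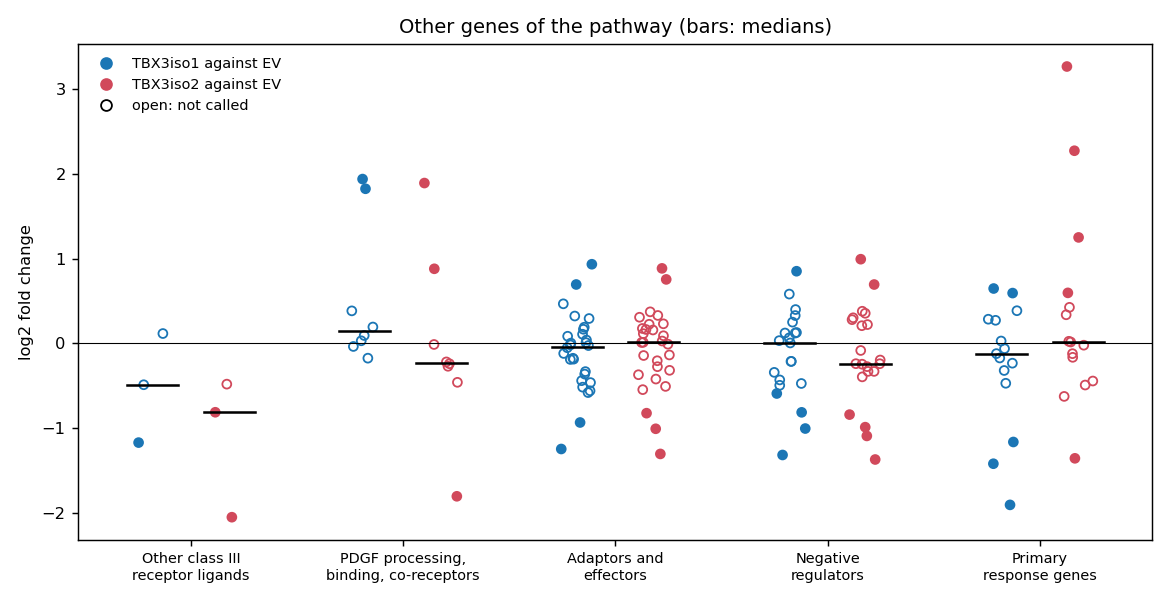
Log2 fold change against EV (vertical axis) of tested genes in 5 lists of the pathway (horizontal axis), with TBX3iso1 and TBX3iso2 side by side. Filled points passed both thresholds, open points did not, and bars are medians, which range from -0.81 for the other class III ligands with TBX3iso2 to 0.14 for the processing list with TBX3iso1.

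Markers of cell types that normally carry PDGF receptors or KIT were mixed, with some near 0 and others well expressed. Of 12 fibroblast markers, 3 were tested, and *COL3A1*, *THY1*, *POSTN*, *TCF21* and *PDGFRL* were under 0.1 RPKM in every library. The summed level of that list was 54.6 to 58.6 RPKM in EV, 63.9 to 72.4 RPKM with TBX3iso1 and 58.0 to 69.8 RPKM with TBX3iso2. The same 2 of the 3 rose with each isoform and 1 fell with TBX3iso2, the rising genes being *COL1A1* (0.77 and 0.70) and *COL6A3* (0.62 and 0.78) and the falling one *FBLN1* (-0.92). Of 10 pericyte and smooth muscle markers, 3 were tested, *MCAM* rising (0.63 and 0.81) and *ACTA2* (-2.28 and -1.67) and *NOTCH3* (-1.76 and -1.53) falling, and the sum was 87.8 to 94.1 RPKM in EV, 130 to 132 RPKM with TBX3iso1 and 143 to 155 RPKM with TBX3iso2, mostly *MCAM*. *CSPG4*, *DES* and *MYH11* were under 0.1 RPKM throughout. Against EV, 7.46% of all tested genes rose and 14.1% fell with TBX3iso1, and 8.94% rose and 12.3% fell with TBX3iso2. With 3 tested genes in each list, nothing is read from the counts.

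Endothelial markers summed to 7.61 and 8.02 RPKM in EV and to 1.5 to 1.81 RPKM in the isoform lines, most of it *PECAM1* (-2.56 and -2.41), with *CDH5*, *VWF* and *ERG* under 0.1 RPKM in all libraries. Blood and mast cell markers summed to 52.7 to 55.0 RPKM in EV and 36.3 to 36.9 RPKM in the isoform lines, with *CD14* lower in both (-2.02 and -2.03) and *PTPRC* and *TPSAB1* under 0.1 RPKM. Melanocyte markers summed to 0.86 to 1.77 RPKM, with *PMEL* lower (-1.32 and -0.68) and *MITF* higher with TBX3iso2 than with TBX3iso1 (1.02). The markers named as under 0.1 RPKM were picked after their values were seen, and others of the same lists were well above *PDGFRA* in EV, with means of 83.9 RPKM for *MCAM*, 27.6 RPKM for *FBLN1*, 24.1 RPKM for *COL6A3* and 10.1 RPKM for *CD14*. The part of other cell types in the *PDGFRA* level was not tested.

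The genes whose pattern over the 4 isoform libraries, relative to the EV mean, lay nearest to that of each tested member were found among the 12805 tested genes. For *PDGFRA* the nearest was *MUC7*, a mucin, with a root mean square difference of 1.14 on the log2 scale and levels of 3.05 and 2.64 RPKM in EV, 2.24 and 1.74 RPKM with TBX3iso1, and 0 and 0.0209 RPKM with TBX3iso2. *BST2*, *KLK7*, *CASP14* and *NDUFA4L2* followed, with differences of 1.29, 1.62, 2.02 and 2.03. Since *PDGFRA* was chosen for its pattern, and its TBX3iso2 values lie under the 0.1 RPKM that was added, the size of these distances is set by the choice and by that addition. For the ligands the nearest genes were *ASNSD1* (0.038), *FARSB* (0.044) and *MPP6* (0.053) for *PDGFA*, *EPGN* (0.081), *FOSL1* (0.082) and *IL6* (0.121) for *PDGFB*, and *VPS9D1* (0.029), *RGL2* (0.051) and *SH3BGRL2* (0.058) for *PDGFC*. *EPGN*, an EGF family ligand, went from 39.5 and 38.2 RPKM in EV to 58.5 and 58.6 RPKM with TBX3iso1 and 112 and 87.8 RPKM with TBX3iso2. These likenesses are over 4 libraries of 2 lines and are a description only.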

How the data were processed

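Stranded mRNA libraries of 6 samples were sequenced as paired ends, aligned by the authors to hg19 with TopHat in Galaxy (at most 10 alignments per read) and deposited as RPKM made in Partek Genomics Suite. Software versions and the gene annotation are not given in the sources used here. From these, log2(RPKM + 0.1) was fitted with limma 3.58.1 (R 4.3.3) for the 12805 genes averaging 0.5 RPKM or more, using 1 mean per line, trended moderation of variances and p-values adjusted by Benjamini-Hochberg across those genes; the fit was tested on simulated data. Calls needed both a 1.5-fold change and an adjusted p below 0.05. The unit does not keep gene counts, but low genes showed the relative worth of 1 read, which differed from that expected from the listed alignments by 0.43 to 2.73% relative to EV replicate 1, and from it the reads behind each member. The transcript lengths that these reads imply are known only up to a factor shared by all genes. On that scale they were 0.813 to 0.844 of the annotated lengths for 6 members, and 0.545 for *PDGFC*. Intervals on ratios of reads are 95% exact binomial (scipy 1.17.1). Positions and sequences came from GRCh37 with GENCODE version 44.

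The members and all lists were chosen with earlier results of these data known. Named are the members, up to 4 called genes per list with the largest change, some fixed genes of the class and of chromosome 4, and the genes nearest in pattern (5 for *PDGFRA*, 3 for each other tested member). *EXOC1*, *FIP1L1*, *GRB10*, marker genes under 0.1 RPKM and the remaining names outside this rule were chosen after their values were seen. The 17 alternatives are a pseudocount of 1 or 0.01 RPKM, no filter or a filter at 2 RPKM, median-ratio scaling, quantile normalization, only the lines compared, a replicate block, no trend, no moderation on log2 or unlogged values, and leaving out each library. The sequence before the start of 1 member is not reported here.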

Additional observations from a re-analysis of the deposited data

How the results depend on the processing

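Levels over annotated transcript lengths, an alternative added after seeing the data, moved the share of *PDGFC* in the ligand sum and its rank, as given with them and under the limit stated there. The directions of the 4 tested members held under all 17 alternatives in each comparison. Against the 2 ligands called with TBX3iso1, 1 was called with a pseudocount of 1 RPKM. The number called was 3 with median-ratio scaling and with quantile normalization, where *PDGFB* passed, and 3 without the filter on low values, where *PDGFD* passed. Effects with a library left out are given with *PDGFA*. Between the isoforms 1 was called, and 0 in the limma fit without moderation on log2 values or on unlogged RPKM (*PDGFB* adjusted p = 0.0699 and 0.0842), where all genes called numbered 199 and 186 against 805; a pseudocount of 1 RPKM gave 419, and a filter at 2 RPKM gave 504. With TBX3iso1, all genes called fell from 2757 to 1812 with a pseudocount of 1 RPKM. The *PDGFRA* value with TBX3iso1 moved from -1.20 to -1.02 with a pseudocount of 1 RPKM, -1.11 with median-ratio scaling and -1.06 with quantile normalization. With TBX3iso2 it moved from -6.18 to -3.16 and -8.50 with pseudocounts of 1 and 0.01 RPKM, -6.14 and -6.10 with those scalings, and -9.37 as the ratio of unlogged means. Between the isoforms it moved from -4.98 to -2.14, -7.29 and -8.15 with the pseudocounts and the unlogged ratio. For TBX3iso2 against either line, the shifts under the pseudocounts and the unlogged ratio follow from the level added, since TBX3iso2 lies below 0.1 RPKM. No TBX3iso2 library enters the TBX3iso1 value against EV. Its shift with a pseudocount of 1 RPKM comes from adding that level to means of 3.46 RPKM with TBX3iso1 and 8.03 RPKM in EV. For the scalings the cause was not tested. Scaling also changed the split of calls over all genes: 955 higher and 1802 lower with TBX3iso1 became 1263 and 1449 with median-ratio scaling and 1270 and 1305 with quantile normalization, and between the isoforms 444 higher and 361 lower became 351 and 440, and 347 and 433. Neither scaling moved the median of all genes by over 0.1.

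Replicates with the same number deviated together, with correlations across genes of 0.22, 0.114 and 0.499 between pairs of lines, but 2 libraries a line do not show a pairing beyond the shared number. With the replicate block 2, 3 and 1 ligands were called, as without it, and no other call on a member changed. Where a library was left out, the remaining library of its line was assumed to vary like the others. With 2 libraries a line, no search for outlying libraries was made, and for *PDGFRB*, *KIT* and *PDGFD* depth is the limit.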
